A study of Homo sapiens with 4 samples.

Results

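The H/ACA box and Cajal body RNAs were compared between naïve human embryonic stem cells grown in 2-D and in 3-D culture. The members were all genes whose GENCODE symbol starts with SNORA or SCARNA and whose raw counts summed to at least 20 over the 4 libraries. This gave 76 members of 238 SNORA and SCARNA genes and of 60564 genes in the count tables, 63 with a SNORA symbol and 13 with a SCARNA symbol. They were thus chosen by their summed raw counts over both conditions together, and their levels are a description. Just inside it were SNORA35 with 20 counts and SNORA30B and SNORA59A with 23 counts each, and just outside it were SNORA16B, SNORA80C and a second locus named SNORA70 with 18 counts each. Of the 162 genes below the threshold, 111 were listed at 0 counts in every library and 51 had 1 to 19 counts.

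Elf1, a naïve human ESC line that derives from a single embryo, was grown in ESC expansion medium in both conditions. The 2-D cells were adherent. By the study's methods, the line was kept on mouse embryonic feeder cells and moved to Matrigel-coated plates without feeders before encapsulation. Those methods do not say which surface the sequenced 2-D cells had. The 3-D cells were dissociated to single cells, encapsulated in self-assembling PEG-8-SH/PEG-8-Acr scaffolds and kept there for 21 days. The study describes 2 independent biological replicates per condition, so each group had 2 libraries of total RNA depleted of ribosomal RNA.

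H/ACA box RNAs are short RNAs that fold into hairpins joined by a hinge with the H box and end shortly after the letters ACA. They are bound by dyskerin, NHP2, NOP10 and GAR1, and by pairing with a target RNA they show dyskerin which uridine to turn into pseudouridine. SNORA RNAs act mostly on ribosomal RNA in the nucleolus, whereas SCARNA RNAs are held in Cajal bodies by WRAP53 and act on the RNAs of the spliceosome. Some SCARNA RNAs are C/D box RNAs, which guide ribose methylation, or carry both kinds of box. In human cells most of these RNAs are cut out of introns of a host gene. Embryonic stem cells divide fast and make many ribosomes, and the telomerase RNA they depend on is itself an H/ACA RNA with a Cajal body signal.

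The sequences that the results turn on are given here from the GENCODE 44 transcripts of hg38, 5′ to 3′ on the strand of the gene. The SNORA22 family is shown because the largest fold changes were found there. Capitals mark a match to ANANNA, the H box, centred in the middle one of 3 equal parts of the RNA, and ACA within the last 6 bases. SNORA22 lies at chr7:65755526-65755659 (+), SNORA22C at chr7:65065999-65066132 (+) and SNORA22B at chr7:56055365-56055502 (+).
SNORA22: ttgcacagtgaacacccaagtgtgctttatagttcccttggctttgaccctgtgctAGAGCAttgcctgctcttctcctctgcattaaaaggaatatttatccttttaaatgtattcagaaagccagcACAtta
SNORA22C: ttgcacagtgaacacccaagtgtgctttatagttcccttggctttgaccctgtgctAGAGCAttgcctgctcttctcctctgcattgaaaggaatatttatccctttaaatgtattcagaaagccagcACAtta
SNORA22B: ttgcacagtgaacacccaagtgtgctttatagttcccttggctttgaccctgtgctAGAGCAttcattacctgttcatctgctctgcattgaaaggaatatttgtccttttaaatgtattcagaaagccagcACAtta
SNORA22 and SNORA22C were identical in 132 of 134 bases (98.5%) and differed by A87G and T104C, with positions counted from 1 at the 5′ end of SNORA22. SNORA22B was 92.8% identical to each of them.

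The SNORA73 pair is shown because SNORA73B was the most abundant member whereas SNORA73A was listed at 0. SNORA73B lies at chr1:28508559-28508762 (+) and SNORA73A at chr1:28507366-28507571 (+), both within SNHG3, and 93.2% of their aligned bases were identical.
SNORA73B: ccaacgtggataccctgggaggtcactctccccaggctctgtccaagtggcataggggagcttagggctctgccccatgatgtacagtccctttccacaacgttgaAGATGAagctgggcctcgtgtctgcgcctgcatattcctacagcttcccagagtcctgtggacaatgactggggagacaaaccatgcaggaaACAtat
SNORA73A: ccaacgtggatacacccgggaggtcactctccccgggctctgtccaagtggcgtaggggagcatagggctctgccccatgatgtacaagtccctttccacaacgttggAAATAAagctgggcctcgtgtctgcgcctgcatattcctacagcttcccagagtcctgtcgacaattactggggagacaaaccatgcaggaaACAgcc

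SCARNA7 and SCARNA22 are shown because SCARNA7 was the only Cajal body RNA called and SCARNA22 had the most negative fold change among them. SCARNA7, at chr3:160514907-160515236 (-), is a C/D box RNA, and capitals in it mark TGATGA, which holds a C box core, and CTGA, the D box letters, in the first 200 of its 330 bases. SCARNA22, at chr4:1974636-1974760 (+), is an H/ACA RNA marked as above, with a pair of H box matches that touch.
SCARNA7: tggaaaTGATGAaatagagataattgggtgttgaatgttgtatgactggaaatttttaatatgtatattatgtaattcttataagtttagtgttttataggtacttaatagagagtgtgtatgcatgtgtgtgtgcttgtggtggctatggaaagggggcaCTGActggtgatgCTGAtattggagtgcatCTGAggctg
SCARNA22: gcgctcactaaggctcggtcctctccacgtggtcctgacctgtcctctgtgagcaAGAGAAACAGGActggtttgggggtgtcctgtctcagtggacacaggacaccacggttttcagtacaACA

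The label of the group was checked against the letters of all members on the strand of the gene. ANANNA was found in that middle part of 59 of 63 SNORA members (93.7%) and of 11 of 13 SCARNA members (84.6%). It was in 41.5% of 35116 RefSeq promoter windows of 135 bases, the median length of a member. The SCARNA matches include the C/D box RNAs SCARNA7 and SCARNA9, which at 330 and 353 bases are longer than the windows. The SCARNA members without a match were SCARNA5 and SCARNA6, which carry both kinds of box. The SCARNA share of this motif therefore does not check the label. ACA stood within the last 6 bases of 85.7% of the SNORA and 69.2% of the SCARNA members, against 5.08% of the windows. TGAG, letters found in the Cajal body box, was in 69.2% of the SCARNA and 44.4% of the SNORA members and in 43.8% of the windows, so this short motif was as frequent in SNORA members as in the windows. The 162 genes below the threshold carried the H box letters in 89.5% and the ACA end in 79.6%, so the level did not set apart genes without these letters.

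The members were 122 to 701 bases long. By the GENCODE 44 annotation, 62 members lay in an intron of a host gene on their strand, 5 lay within one of its exons, 2 partly overlapped an exon and 7 had no gene on their strand that spanned them. Of the hosts, 59 were protein-coding, 7 were long noncoding RNAs and 3 were transcribed pseudogenes, counted once per member. Which genes reached the threshold differed with their position. Outside exons of other genes, 65 of 147 SNORA and SCARNA genes (44.2%) were members and 41 (27.9%) were at 0. Within an exon of another gene on their strand, 5 of 74 (6.76%) were members and 65 (87.8%) were at 0.

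**Figure D1:**
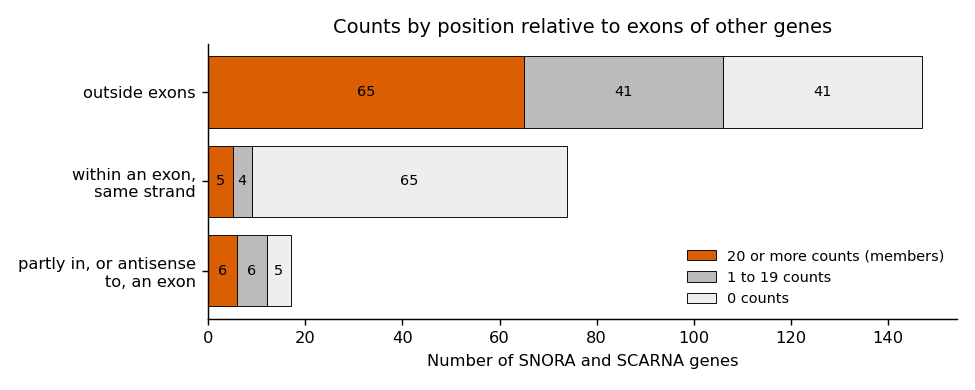
Number of SNORA and SCARNA genes with 20 or more counts, 1 to 19 counts and 0 counts over the 4 libraries (x axis), by their position relative to exons of other genes (y axis). Of the 74 genes within an exon on the same strand, 65 were at 0 counts, against 41 of the 147 genes outside exons.

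The genes listed at 0 in every library included SNORA73A, which lies in an exon of SNHG3, and the Cajal body RNAs SCARNA2, SCARNA4, SCARNA13, SCARNA15, SCARNA16 and SCARNA17. Each of these 7 lay within an exon of another annotated gene on its strand, which for SCARNA4 was a second entry of the same RNA. A count of 0 allows up to 0.0869 and 0.0972 TMM-normalized CPM, counts scaled to a common library total, in 2-D replicates 1 and 2, and up to 0.146 and 0.167 CPM in 3-D replicates 1 and 2, by counting error alone. How the counting treated reads that overlap more than one gene is not given in the sources used here, and its part in these zeros was not tested. They are therefore not read as absence of the RNA, and the 76 members are the part of the family that this counting can show.

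Counts per library summed to between 18276147 and 33833778, with the 3-D libraries below the 2-D libraries. The libraries held the RNA of pluripotent cells, with 10 of 10 pluripotency markers tested and POU5F1 at 116 CPM in 2-D and 120 CPM in 3-D on average. Among these 10, L1TD1 was called higher in 3-D (log2 fold change 0.21, adjusted p = 0.00111, edgeR quasi-likelihood test). DESeq2 called 2 higher and 0 lower, and at an unadjusted p under 0.05 by the edgeR test 4 were higher and 1 was lower. Of the naïve markers, TFCP2L1 (23.0 and 22.2 CPM on average in 2-D and 3-D), DNMT3L (17.0 and 16.2), KLF4 (9.32 and 9.91) and DPPA3 (6.72 and 6.35) were detected, KLF17 was low (0.703 and 0.981), and DPPA5 had at most 4 counts in any library. Fibroblast markers summed to 538 and 530 CPM in 2-D and 547 and 597 CPM in 3-D, 3 of the 6 tested (COL1A1, COL3A1 and THY1) were called higher in 3-D, while DCN had at most 6 counts in any library, none of the 8 was at 0, and their part in the members' values was not tested. Of the endoderm, mesoderm, neural ectoderm and trophoblast markers, 3, 3, 3 and 5 were tested, and none was called by edgeR's quasi-likelihood test or by DESeq2, while edgeR's likelihood ratio test called GATA6 and HAND1 and 3 had an unadjusted p under 0.05.

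Most members had few counts. Only 32 had 100 counts or more over the 4 libraries and 4 had 1000 or more. How well the libraries captured RNAs this short, with a median length of 135 bases, was not measured. The levels here and below are therefore those of the libraries and not of the cells. The members together held 281 and 284 CPM in 2-D replicates 1 and 2, and 411 and 255 CPM in 3-D replicates 1 and 2. The 3-D libraries thus lay on either side of the 2-D libraries, and the mean of 333 ± 111 CPM in 3-D (SD, n = 2) was not apart from the mean of 282 ± 2.68 CPM in 2-D (SD, n = 2). In bulk RNA, fewer cells with an RNA and less of it per cell cannot be told apart. Per kilobase, the 2 most abundant members were SNORA73B, at 493 CPM per kb on average over the libraries, and SCARNA7, at 247 CPM per kb, followed by SNORA79B at 106 CPM per kb.

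**Figure D2:**
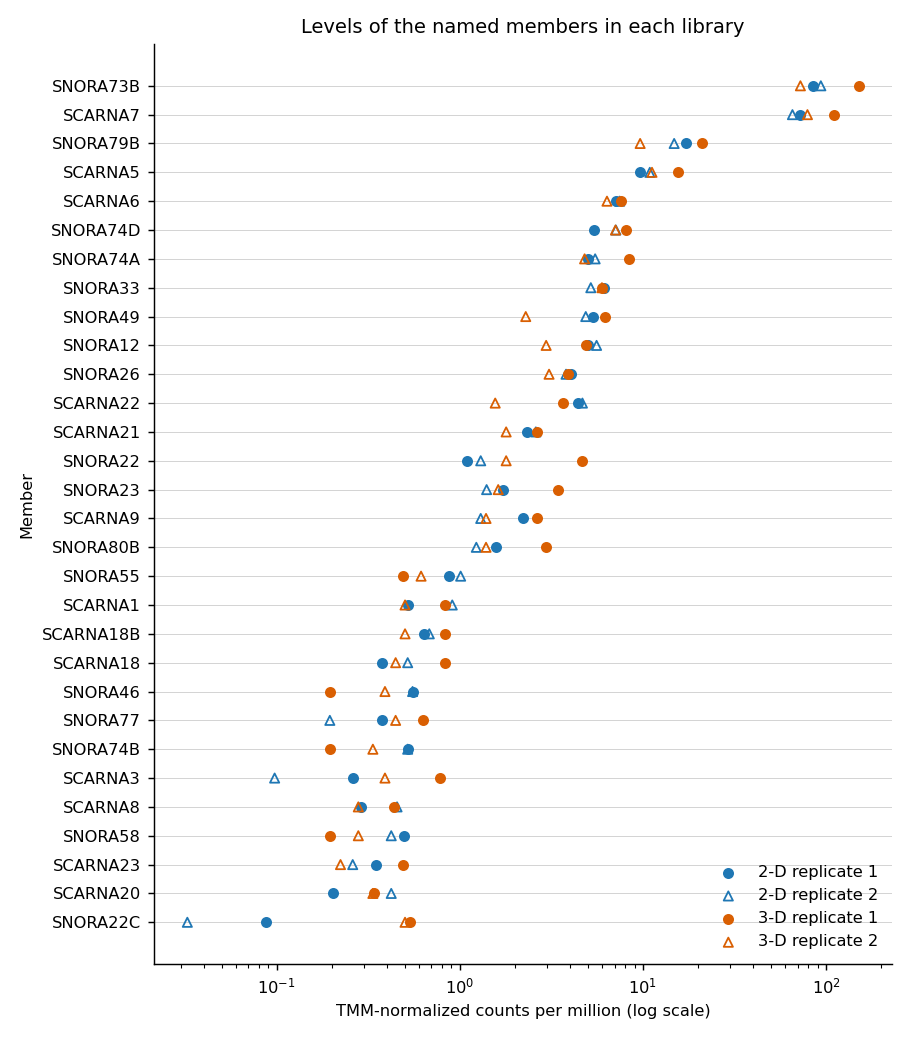
TMM-normalized CPM (x axis, log scale) of the 30 named members (y axis) in the 2-D (blue) and 3-D (orange) libraries, with filled circles for replicate 1 and open triangles for replicate 2. SNORA73B and SCARNA7 stood above the rest, and the 3-D replicates were often farther apart than the 2-D replicates.

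Of the 76 members, 58 passed the filter on low counts and were tested, and 3 were called, all higher in 3-D (SCARNA7, SNORA22 and SNORA22C). The filter asked for at least 0.39 CPM in 2 libraries. SNORA22C and SNORA77 met it in the 3-D libraries alone, and SNORA46, SNORA58 and SNORA74B in the 2-D libraries alone, so these 5 were let in only by the condition in which they were high. Of the 53 members that met it in a library of each condition, 2 were called (SCARNA7 and SNORA22), with a median log2 fold change of 0.07. A call is an adjusted p under 0.05 by the quasi-likelihood test of edgeR, adjusted by Benjamini-Hochberg across the 22555 genes tested. This is 5.17% of the tested members, against 7.9% of all genes tested called in either direction (4.54% higher and 3.36% lower). At an unadjusted p under 0.05 there were 11 members, 5 higher and 6 lower, against 21.3% of all genes. The members' share of calls was thus near that of genes at large. The likelihood ratio test of edgeR called the same 3 members, and DESeq2 called 0 and gave an adjusted p to only 4 of the 76. The median log2 fold change of the tested members was 0.05, with 31 above and 27 below 0, beside a median of −0.00014 over all genes. The range ran from −0.99 to 2.99. For the C/D box RNAs (SNORD), which guide ribose methylation and are mostly cut from introns in the same way, the median of 66 tested genes was −0.22, with 0 called higher and 6 called lower by edgeR's quasi-likelihood test (4 higher and 15 lower at an unadjusted p under 0.05, and 0 and 2 by DESeq2). The SNORD genes summed to 5600 and 4840 CPM in 2-D and 1270 and 581 CPM in 3-D, both 3-D libraries below both 2-D libraries, whereas the members' sums overlapped. A sum weighs abundant genes most, and which SNORD genes carried this fall was not examined. With a median of −0.22 and a lowest value of −2.90 over the tested SNORD genes, the fall of the sum is not that of a typical SNORD gene. No test of the difference between these groups of genes was run.

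**Figure D3:**
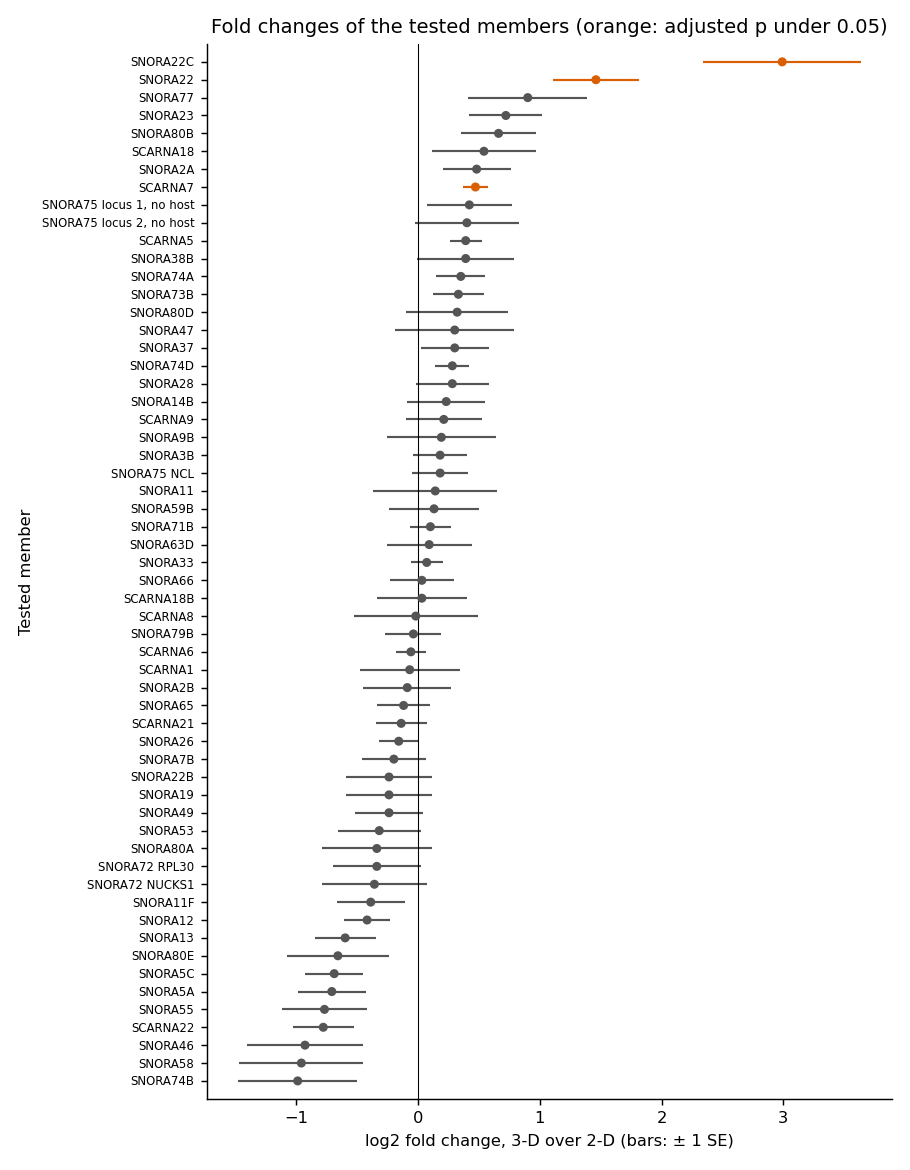
log2 fold change of 3-D over 2-D (x axis, bars show 1 SE on either side) for the 58 tested members (y axis), sorted by size. The 3 members called by the edgeR quasi-likelihood test are orange, and most other members lay within 1 unit of 0 on either side.

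SCARNA7 was the Cajal body RNA with the highest level and the only one called. It had 71.6 and 65.5 CPM in 2-D replicates 1 and 2, and 110 and 79.1 CPM in 3-D replicates 1 and 2. Both 3-D libraries were above both 2-D libraries, with 3-D replicate 2 close to the 2-D range. The log2 fold change was 0.47 ± 0.10 (SE), with an adjusted p of 0.0152 by edgeR's quasi-likelihood test. Without 3-D replicate 1 it was 0.21 and without 3-D replicate 2 it was 0.68. A fit with a lone library in a condition takes its spread from the other condition alone. The 2-D pair varied less than the 3-D pair (chi-square per degree of freedom 2.27 against 3.92). Calls in fits with a library left out, here and below, therefore carry little weight. DESeq2 gave 0.46 with an adjusted p of 0.317, which ends the call. KPNA4, the importin gene whose intron holds SCARNA7, had a log2 fold change of −0.01 ± 0.03 (SE).

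SNORA22, an H/ACA RNA in the family shown above, had 38 and 40 counts in the 2-D libraries and 96 and 32 counts in 3-D replicates 1 and 2. Scaled to depth these were 1.10 and 1.30 CPM in 2-D and 4.67 and 1.79 CPM in 3-D. The groups did not overlap, but most of the difference lay in 3-D replicate 1. The log2 fold change was 1.46 ± 0.35 (SE), with an adjusted p of 0.0230 by edgeR's quasi-likelihood test. Without 3-D replicate 1 it was 0.58 with an adjusted p of 0.31 by the same test, so the call rested on that library. Its host CCT6P1, a transcribed pseudogene of a chaperonin subunit, had −0.33 ± 0.11 (SE) and was not called (adjusted p = 0.0802, edgeR quasi-likelihood test).

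SNORA22C, which differs from SNORA22 at the 2 positions given above, had 3 and 1 counts in the 2-D libraries and 11 and 9 counts in the 3-D libraries. Here both 3-D libraries were alike and above both 2-D libraries. The log2 fold change was 2.99 ± 0.65 (SE) with an adjusted p of 0.0146 by edgeR's quasi-likelihood test, but it was tested only because its 3-D libraries met the filter, and with so few counts in 2-D its size is imprecise. The fold change was 3.79 without 2-D replicate 1 (adjusted p = 0.0595) and 2.51 without 2-D replicate 2 (adjusted p = 0.167), neither called by the same edgeR test. Without 3-D replicate 1 it did not pass the filter, and without 3-D replicate 2 it was called, at 3.04. SNORA22B, the remaining copy, had 0.784 and 0.811 CPM in 2-D and 0.778 and 0.558 CPM in 3-D, a log2 fold change of −0.24 ± 0.35 (SE) that was not called. The fold changes of SNORA22 and SNORA22C were positive and that of SNORA22B was not, but the difference between the copies was not tested. Reads that cover neither of the differing bases fit SNORA22 and SNORA22C equally well, so the values of the pair are uncertain where the counting could split them. The pair is therefore not read as 2 separate observations. Among all members, 34 had another place in hg38 with at least 90% identity over at least 80% of their length.

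The other Cajal body RNAs were not called. SCARNA5 and SCARNA6, which carry both kinds of box and lie in introns of the autophagy gene ATG16L1, had different values. SCARNA5 had 9.58 and 10.9 CPM in 2-D and 15.5 and 11.2 CPM in 3-D, with a log2 fold change of 0.39 ± 0.13 (SE; adjusted p = 0.0989, edgeR quasi-likelihood test). SCARNA6 had 7.11 and 7.46 CPM in 2-D and 7.54 and 6.36 CPM in 3-D, with −0.06 ± 0.12 (SE). The 3-D libraries were above the 2-D libraries for SCARNA5, 3-D replicate 2 only narrowly, and on both sides of them for SCARNA6, while ATG16L1 itself had 0.02 ± 0.05 (SE). The difference between the pair was not tested. SCARNA5 was called without 3-D replicate 2, at 0.60, and without 2-D replicate 2, at 0.49, and not called without 3-D replicate 1, at 0.13, or 2-D replicate 1, at 0.30.

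SCARNA22, whose gene lies within the histone methyltransferase gene NSD2, had 4.44 and 4.67 CPM in 2-D and 3.65 and 1.56 CPM in 3-D. Both 3-D libraries were below both 2-D libraries, and 3-D replicate 2 was the lowest by far. The log2 fold change was −0.78 ± 0.25 (SE), with an adjusted p of 0.0886 by edgeR's quasi-likelihood test, and NSD2 had −0.00027 ± 0.03 (SE). Leaving out 3-D replicate 1 gave −1.54 and leaving out 2-D replicate 1 gave −0.82, both called, and it was −0.32 without 3-D replicate 2. SCARNA9, a C/D box RNA, had 2.21 and 1.30 CPM in 2-D and 2.63 and 1.39 CPM in 3-D, so the spread within each condition was larger than the difference between them. The H/ACA RNA SCARNA21, in the chromatin remodeller gene CHD3, had 2.32 and 2.60 CPM in 2-D and 2.63 and 1.79 CPM in 3-D.

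The 7 other SCARNA members were below 1 CPM in every library. SCARNA1 had 0.523 and 0.909 CPM in 2-D and 0.827 and 0.502 CPM in 3-D. SCARNA18 had 0.377 and 0.519 against 0.827 and 0.446 CPM, and its close relative SCARNA18B had 0.639 and 0.681 against 0.827 and 0.502 CPM. SCARNA8 had 0.290 and 0.454 against 0.438 and 0.279 CPM. In these 4 the groups overlapped. SCARNA3, SCARNA20 and SCARNA23 did not pass the filter on low counts and were not tested. Of these, SCARNA3 had 9 and 3 counts in 2-D and 16 and 7 counts in 3-D, and its groups did not overlap on the CPM scale.

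None of the SNORA members with the highest levels was called by edgeR's quasi-likelihood test. SNORA73B, an RNA needed for early cleavage of the ribosomal RNA precursor and not for its modification, had 85.1 and 93.6 CPM in 2-D and 151 and 72.4 CPM in 3-D. The 3-D libraries were the highest and the lowest of all. The log2 fold change was 0.33 ± 0.21 (SE), with an adjusted p of 0.404 by edgeR's quasi-likelihood test. Without 3-D replicate 1 it was −0.30 and without 3-D replicate 2 it was 0.76, each called, so the direction was set by the choice of library. SNORA73B made up 30.3% and 32.9% of the members' sum in 2-D, and 36.7% and 28.4% in 3-D. SNORA79B followed the same pattern, at 17.1 and 14.8 CPM in 2-D and 21.0 and 9.65 CPM in 3-D, with −0.04 ± 0.23 (SE). Leaving out 3-D replicate 1 gave −0.72 and leaving out 3-D replicate 2 gave 0.40, each called.

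SNORA74A and SNORA74D lie in introns of SNHG4, a noncoding host of small RNAs. SNORA74A had 5.02 and 5.48 CPM in 2-D and 8.42 and 4.80 CPM in 3-D, and SNORA74D had 5.43 and 7.11 against 8.03 and 7.08 CPM. Their log2 fold changes were 0.35 ± 0.20 and 0.28 ± 0.14 (SE). SNORA49, in the chromatin remodeller gene EP400, had 5.31 and 4.87 CPM in 2-D and 6.18 and 2.29 CPM in 3-D. SNORA12, in CWF19L1, had 5.02 and 5.58 against 4.87 and 2.96 CPM, and SNORA26, in an exon of the noncoding gene DANCR, had 4.04 and 3.80 against 3.89 and 3.07 CPM. In all 5 the second 3-D library was the lower of the 3-D pair. Without 3-D replicate 1, SNORA49 (−1.15) and SNORA12 (−0.84) were called, and without 3-D replicate 2, SNORA74A (0.68) was called. SNORA33, which lies in an intron of the ribosomal protein gene RPS12, was the steadiest of the abundant members, with 6.10 and 5.19 CPM in 2-D and 5.94 and 5.97 CPM in 3-D.

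The largest positive fold changes after SNORA22C and SNORA22 were those of SNORA77, SNORA23 and SNORA80B, and none was called. SNORA77 had 13 and 6 counts in 2-D and 13 and 8 in 3-D, a log2 fold change of 0.90 ± 0.49 (SE) after scaling to depth, and it met the filter in the 3-D libraries alone. SNORA23 had 1.71 and 1.40 CPM in 2-D and 3.45 and 1.62 CPM in 3-D, and SNORA80B had 1.57 and 1.23 against 2.97 and 1.39 CPM. For the latter pair the excess was in 3-D replicate 1, and 3-D replicate 2 lay within the 2-D range, so that both were called without 3-D replicate 2, at 1.15 and 1.08. The largest negative fold changes were those of SNORA74B (−0.99 ± 0.49, SE), SNORA58 (−0.96 ± 0.51), SNORA46 (−0.93 ± 0.48), SCARNA22 and SNORA55 (−0.77 ± 0.35). SNORA74B had 18 and 16 counts in 2-D and 4 and 6 in 3-D. SNORA58 had 17 and 13 against 4 and 5 counts, and SNORA46 had 19 and 17 against 4 and 7 counts. SNORA55 had 30 and 31 against 10 and 11 counts. In all 5 the 3-D libraries were below the 2-D libraries after scaling to depth, as in 25.1% of all genes tested. The 5 were picked for their low fold changes, and none was called. SNORA74B, SNORA58 and SNORA46 were tested only because their 2-D libraries met the filter, so their place among the lowest rests in part on that choice.

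Groups that do not overlap were counted among the members. Of the 58 tested members, 7 had both 3-D libraries above both 2-D libraries (25.4% of all genes tested did) and 13 had both below (25.1% of all genes tested). Together these were 34.5% of the members, against 50.5% of all genes tested. SNORA22C and SNORA77 are among the 7, and SNORA46, SNORA58 and SNORA74B are among the 13. Each of these was let in by the filter only through the condition in which it was high. Among all 76 members, 9 were higher, 20 were lower and 47 overlapped. This set includes 18 members that were not tested, and no share over all genes was taken for it. The rule sums raw counts, and the 2-D libraries were deeper. A gene near the threshold thus enters more easily when it is high in 2-D, so 20 against 9 is not read as a direction. No test of the difference in these shares was run.

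The members differed between the 3-D libraries. In 3-D, 44 of 58 tested members (75.9%) were higher in replicate 1 than in replicate 2, against 50.1% of all genes tested. The median log2 ratio of 3-D replicate 1 to replicate 2 was 0.47 over the members and 0.00033 over all genes. In 2-D the same counts were 31 of 58 (53.4%) with a median of 0.01. All 10 tested SCARNA members were higher in 3-D replicate 1 than in replicate 2, with a median log2 ratio of 0.69, as were 34 of 48 SNORA members, with a median of 0.37. Other small RNAs were set beside the members. Genes for small nuclear RNAs summed to 385 CPM in 3-D replicate 1 and 203 CPM in 3-D replicate 2, beside 189 and 187 CPM in 2-D. Of the 66 tested SNORD genes, 45 were higher in replicate 1 than in replicate 2 in 3-D and 44 were in 2-D. Their median log2 ratios were 0.32 in 3-D and 0.10 in 2-D. For the sum of the SNORD genes the log2 ratio was 1.13 in 3-D and 0.21 in 2-D. For the sum of the members it was 0.69 and −0.02, so a gap between the 3-D libraries was not particular to the members. What separates the 3-D libraries was not tested.

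**Figure D4:**
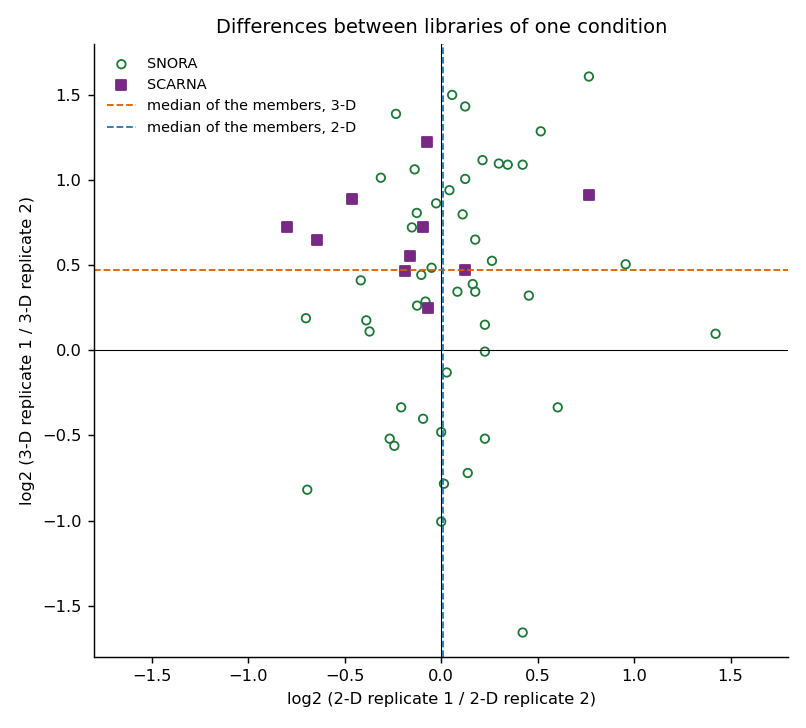
log2 ratio of 3-D replicate 1 to 3-D replicate 2 (y axis) against that of 2-D replicate 1 to 2-D replicate 2 (x axis) for the 58 tested members, with SNORA as open circles and SCARNA as squares. Dashed lines mark the members' medians, 0.47 for 3-D and 0.01 for 2-D, and all 10 SCARNA members lay above 0 on the y axis.

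The difference between the 3-D libraries decided the direction of the members as a group. With 3-D replicate 1 left out the median log2 fold change was −0.30 over the 71 members in the fit. With 3-D replicate 2 left out it was 0.18 over 74 members. Leaving out 2-D replicate 1 or 2 gave medians of 0.07 and 0.08 over 63 and 62 members. More members pass the filter in these fits than the 58 of the main fit, so the medians are over different sets. The log2 fold change of SCARNA7 was positive in each of these 4 fits, at 0.53 and 0.41 without 2-D replicates 1 and 2. The pattern did not rest on the most abundant members, since the sum without SNORA73B and SCARNA7 was 124 and 125 CPM in 2-D, and 150 and 103 CPM in 3-D.

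The level of each member was compared with that of the exons of its host. The introns, in which most members lie, were not measured. Per kilobase of exon, 22 of the 68 members with a host in the tables were denser than the host, and the median ratio of member to host was 0.279. SCARNA7 was 14.7 times as dense as KPNA4 and SNORA73B 11.4 times as dense as SNHG3. SCARNA5 was 5.73 times as dense as its host, SCARNA21 4.77 times and SNORA79B 4.10 times. SNORA33, in contrast, stood at 0.0694 of the density of RPS12, and the lowest ratio was 0.0263, for the SNORA72 copy in NUCKS1. For the 46 members below their host, counts from the surrounding transcript cannot be told apart from those of the small RNA with these files. For the 22 above their host the ratio does not measure the surrounding intron either. The shift between the 3-D libraries was larger where the member was denser than its host, a split chosen after its values were seen. Of 19 such tested members 18 were higher in 3-D replicate 1, with a median log2 ratio of 0.72, against 23 of 35 and a median of 0.29 for the others with a host.

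The fold changes of members were set beside those of their hosts. Over 54 tested members with a tested host, Pearson's r was −0.0675 and Spearman's rho −0.0324, a description across genes that share the same 4 libraries and in 4 cases the same host, and 25 of the 54 had the direction of their host. Among the hosts of the named members, SNHG3 fell by 0.22 on the log2 scale (adjusted p = 0.00102, edgeR quasi-likelihood test) while SNORA73B was at 0.33. RPS12 fell by 0.53 (adjusted p = 1.81e-04, edgeR quasi-likelihood test), and SNORA33 in its intron was at 0.07. CCNB1IP1, which holds SNORA79B, fell by 0.27 (adjusted p = 7.72e-04, edgeR quasi-likelihood test), and CWF19L1, which holds SNORA12, fell by 0.29 (adjusted p = 0.00545, edgeR quasi-likelihood test). SNHG4 fell by 0.16 (adjusted p = 0.0141, edgeR quasi-likelihood test), and its members SNORA74A and SNORA74D both had positive values. The SNHG4 call was lost under the likelihood ratio test (adjusted p = 0.059), under DESeq2 (adjusted p = 0.126) and without 2-D replicate 1 (adjusted p = 0.184, edgeR). Of the 50 hosts tested, 4 were called higher and 9 lower, which is 26% against 7.9% of all genes tested. The hosts were not matched in level to the other genes, and abundant genes are called more easily, so these shares do not compare like with like. The difference between a member and its host was not tested.

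**Figure D5:**
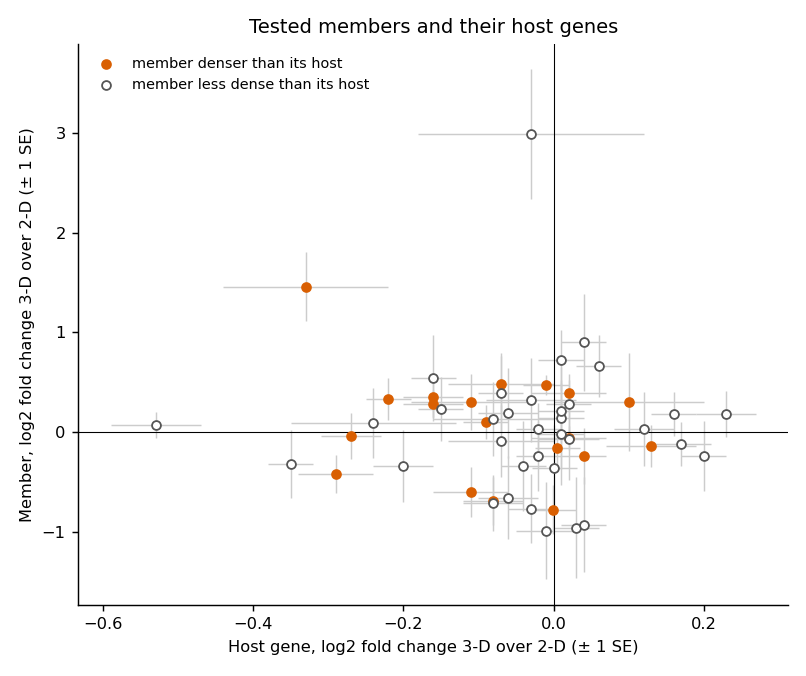
log2 fold change of 3-D over 2-D for the 54 tested members with a tested host (y axis) against that of the host gene (x axis), bars showing 1 SE on either side. Orange members were denser per kilobase than the host, and the points show no common trend.

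A pair of members shared a host in 4 cases. In TBRG4, a gene for a mitochondrial RNA regulator, SNORA5A and SNORA5C both had negative values, −0.71 ± 0.28 and −0.69 ± 0.24 (SE), with groups that did not overlap, and TBRG4 had −0.08 ± 0.04. SNORA5A had 1.74 and 1.59 CPM in 2-D and 0.778 and 1.28 CPM in 3-D, and SNORA5C had 2.09 and 2.79 against 1.70 and 1.28 CPM. Neither was called with all 4 libraries. SNORA5A was called without 3-D replicate 2, at −1.09, and SNORA5C without 3-D replicate 1, at −0.92, without 2-D replicate 1, at −0.89, and with no filter on low counts. In KANSL2, a gene of a histone acetyltransferase complex, SNORA2A had 0.48 ± 0.28 and SNORA2B −0.09 ± 0.36 (SE). The other pairs were SNORA74A and SNORA74D in SNHG4, and SCARNA5 and SCARNA6 in ATG16L1, given above.

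The proteins that bind and place these RNAs were taken from lists written from general knowledge. Of the 8 core and assembly genes, all tested, RUVBL1 was called higher. RUVBL1, an ATPase of the complex that assembles these particles, had 135 and 134 CPM in 2-D and 156 and 157 CPM in 3-D, a log2 fold change of 0.21 ± 0.03 (SE; adjusted p = 7.79e-04, edgeR quasi-likelihood test). DKC1, which encodes dyskerin, had 231 and 229 CPM against 240 and 231 CPM. NHP2, NOP10, GAR1, NAF1, SHQ1 and RUVBL2 had log2 fold changes between −0.12 and 0.13 and were not called. Of the 17 Cajal body genes 16 were tested, with LARP7 called lower and 0 called higher by edgeR's quasi-likelihood test or DESeq2 (3 higher at an unadjusted p under 0.05). LARP7, an RNA-binding protein that helps C/D box RNAs guide methylation of a spliceosomal RNA, had 399 and 399 CPM in 2-D and 322 and 279 CPM in 3-D, with −0.41 ± 0.05 (SE; adjusted p = 4.54e-04, edgeR quasi-likelihood test). It kept its call in the alternatives with all 4 libraries, and with a library left out its log2 fold change ran from −0.52 to −0.31. WRAP53, which carries the RNAs to Cajal bodies, had 24.7 and 25.7 CPM against 25.9 and 24.8 CPM, and COIL, the scaffold protein of Cajal bodies, had 26.9 and 26.9 against 29.5 and 25.9 CPM. SMN1 and SMN2 are near-identical copies, and their values are uncertain.

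Of the 10 genes for freeing and trimming intronic RNAs, all tested, only DBR1 was called, lower in 3-D. DBR1, which opens intron lariats, had 27.3 and 26.5 CPM in 2-D and 22.8 and 22.6 CPM in 3-D, with −0.24 ± 0.07 (SE; adjusted p = 0.0416, edgeR quasi-likelihood test). That call was lost under the likelihood ratio test (adjusted p = 0.141), under DESeq2 (adjusted p = 0.243) and without 2-D replicate 1 (adjusted p = 0.233, edgeR), 2-D replicate 2 (adjusted p = 0.126, edgeR) or 3-D replicate 2 (adjusted p = 0.0517, edgeR). PARN, a deadenylase that trims H/ACA RNA ends, was at 0.842 CPM in 2-D replicate 1 against 13.2 CPM in 2-D replicate 2 and 17.7 and 10.3 CPM in 3-D, so 1 library stood apart and no call was made. The telomerase list also held TERF1, TERF2, TERF2IP, POT1, TINF2 and ACD, genes of the complex at telomere ends, and DKC1 and WRAP53 from the lists above. Of its genes, 9 were tested and none was called by edgeR's quasi-likelihood test or DESeq2, with 1, TERF1, at an unadjusted p under 0.05. TERT had 9.47 and 9.05 CPM in 2-D and 10.1 and 9.15 CPM in 3-D. TERC, the telomerase RNA, had 3 and 4 counts in 2-D and 3 and 1 counts in 3-D and was not tested. For comparison, of the 4 proteins of C/D box particles NOP58 was called higher and FBL and SNU13 were called lower, with log2 fold changes of 0.21, −0.17 and −0.17, and of the 12 pseudouridine synthases that need no guide RNA, all tested, none was called by edgeR's quasi-likelihood test or DESeq2, with 3 at an unadjusted p under 0.05. The FBL call was lost under the likelihood ratio test (adjusted p = 0.0613) and the SNU13 call under DESeq2 (adjusted p = 0.0876). Both were lost without 2-D replicate 1, at −0.15 each, and the NOP58 call was lost with library size only, at 0.14.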

How the data were processed

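RNA was measured in 4 libraries, 2 of 2-D and 2 of 3-D grown Elf1 cells. The authors trimmed reads with Trim Galore 0.6.3, mapped them to hg38 with HISAT2 2.1.0 and counted them on GENCODE release 30 genes with featureCounts 1.6.4, and deposited these counts as integers, 1 value for each gene, not normalized. Strand and multi-mapping settings are not given in the sources used here. The deposited table of normalized counts, fold changes and p-values (DESeq2 2.11.40.6) was not used.

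Members and lists were chosen with earlier results of these data known. Groups came from the sample titles. Counts were tested with edgeR 4.0.16 in R 4.3.3 (limma 3.58.1), with TMM, filterByExpr, the quasi-likelihood test on condition and Benjamini-Hochberg adjustment at 0.05 over 22555 genes. SEs are the size of the log2 fold change over the square root of F. The procedure was tested on simulated counts with 200 changed genes. DESeq2 1.42.0 and 10 other alternatives were run. Counts of same-condition libraries varied beyond sampling noise (chi-square per degree of freedom, 2-D 2.27, 3-D 3.92), and all 4 were kept. Total counts were 33833778 and 30114220 in 2-D and 21154409 and 18276147 in 3-D.

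Symbols, positions, hosts and sequences came from GENCODE 44 (60295 of 60564 identifiers matched), a later release than that of the counting. A host is a gene on the same strand that spans the RNA, and where several did, the one with the most counts was used. Copies are BLAST 2.17.0 hits in hg38 with at least 90% identity over 80% of the length. Promoter windows were those of RefSeq. Tables and figures used Python 3.11.15, pandas 2.3.3, numpy 2.4.6, Biopython 1.88 and matplotlib 3.10.9. Named genes were every SCARNA member, called members, the 10 members highest in CPM and in CPM per kb, the 5 largest fold changes in each direction, hosts of called and most abundant members, and the genes of the lists. Pairs in a shared host were named after their values were seen.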

Additional observations from a re-analysis of the deposited data

How the results depend on the processing

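The number of called members (3) was 0 under DESeq2, 9 without a filter on low counts (SNORA73B, SNORA23, SNORA5C, SCARNA3, SCARNA5 and SCARNA22 added) and 4 to 11 with a library left out. The median log2 fold change of the members (0.05) ran from −0.30 to 0.18 with a library left out, over 62 to 74 members in place of 58. All genes called (1782) were 1139 under the likelihood ratio test, 771 under DESeq2 and 974 to 2643 with a library left out. With library size only, 514 genes were called higher and 1879 lower in place of 1024 and 758, and the median of all genes was −0.06. A minimum of 100 counts left 32 members, all tested, of which 2 were called. The cause of these differences was not tested.

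The log2 fold change of SCARNA18B was −0.03 with library size only. With a library left out, signs changed for SNORA73B (−0.30 to 0.76), SNORA79B (−0.72 to 0.40), SCARNA6 (−0.19 to 0.05), SNORA74A (−0.13 to 0.68), SNORA33 (−0.03 to 0.20), SNORA49 (−1.15 to 0.28), SCARNA21 (−0.46 to 0.10), SCARNA9 (−0.34 to 0.65), SNORA80B (−0.01 to 1.08), SCARNA1 (−0.49 to 0.36), SCARNA18B (−0.39 to 0.33) and SCARNA8 (−0.40 to 0.25). Over the 38 genes followed through the alternatives (27 tested members, 6 called list genes and 5 called hosts), 353 values kept their direction and their side of the threshold, 18 passed it, 17 lost it and 17 changed sign, with direction alone compared where DESeq2 gave no adjusted p. A fit without a library takes the lone library of its condition to vary like the other condition. SNORA22C does not pass a minimum of 10 counts in every library, or the filter without 3-D replicate 1, which gives it no value there.

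The study's methods name no pairing of the replicates. Across the tested genes, the deviations of same-numbered libraries had a correlation of −0.00792. With 2 libraries per condition, this value cannot settle whether same-numbered libraries shared a batch. With the replicate number as a block, 2167 genes and 4 members were called, and the median of the members was 0.05. The added member was SCARNA22 (−0.81, adjusted p = 0.0256, edgeR quasi-likelihood test). No other call among these 38 genes changed under the block. With 2 libraries per condition and few counts in most members, depth and number limit which differences can be called.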
